A study of Mus musculus with 6 samples.

Results

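Chemokine receptor transcripts were examined in cultured mouse eosinophils, the leukocytes that the receptor Ccr3 draws into allergic airways. The genes were taken by name from a table of estimated counts per gene: Ccr1, Ccr2, Ccr3, Ccr7, Cxcr2, Cxcr4, Cx3cr1, Ccrl2 and Ackr3. Of these 9 genes, 8 were among the 16254 genes with counts, and Ackr3 was not analysed here. The eosinophils were grown from bone marrow of C57BL/6 mice aged 6 to 12 weeks, first in stem cell factor and Flt3 ligand and then in IL-5 at 10 ng/ml, and were used on day 12 of culture. EV-treated cells received extracellular vesicles from restimulated (activated) Th2 cell cultures at 5e9 vesicles per ml for 24 h. Vesicles were isolated by size exclusion chromatography and ultrafiltration. Sham-treated cells received medium without T cells that had been taken through the same isolation. Each group held 3 libraries given as biological replicates. The sources used here do not say whether each came from another mouse, so the p-values measure the spread between these cultures.

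Chemokine receptors are G protein-coupled receptors through which leukocytes sense gradients of small secreted proteins, the chemokines, and move toward them. Binding releases Gi proteins, whose subunits activate phosphoinositide 3-kinase, phospholipase C and the GTPases that drive movement, while receptor kinases, arrestins and RGS proteins end the signal. In eosinophils Ccr3 is the receptor for the eotaxins, Ccr1 binds Ccl3, Ccl5, Ccl6 and Ccl9, and Cxcr4 binds Cxcl12, the chemokine that holds leukocytes in bone marrow.

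Ccr3, Ccr1 and Cxcr2 rose and Cxcr4 and Cx3cr1 fell in EV-treated eosinophils, whereas Ccr2, Ccr7 and Ccrl2 did not pass the test. Ccr3 and Ccr1 roughly doubled, by 2.18-fold and 2.07-fold, Cxcr2 rose 3.66-fold, and Cxcr4 was 1.96-fold lower. The call rule was a Benjamini-Hochberg adjusted p of less than 0.01 in the quasi-likelihood test of edgeR, run on 13498 genes. Under that rule 3 of the 8 tested chemokine receptor genes were higher, against 12.1% of all genes tested, and 2 were lower, against 11.6%. The median log2 fold change of the 8 genes was 0.40, and that of all genes tested was -0.01. Cx3cr1 and Ccr7 entered the test through their counts in the sham-treated libraries alone, so these counts and this median describe the genes and support no statement on the family.

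Library totals ran from 23697620 to 37874426 estimated counts, and the first principal component, with 62.6% of the variance, parted the groups. The cells carried the defining eosinophil markers: all 11 on the list (among them Prg2, Epx, Siglecf and Il5ra) had counts. T cell markers summed to 31.5 to 118 normalized counts with sham and 37.0 to 75.4 with EVs, and B cell markers to 152 to 162 and 171 to 183. Of the 1 T cell and 3 B cell markers tested, 0 were called by edgeR, 0 passed an unadjusted p of 0.05 and 0 were called by DESeq2. Values below are normalized counts, that is, counts divided by the TMM-scaled size of the library, with sizes set so that their geometric mean over the 6 libraries is 1.

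Ccr3 and Ccr1 lie in a cluster of receptor genes on mouse chromosome 9, with Ccr1l1 between them, and are transcribed from opposite strands. The 250 bases before their transcription starts are given here with those of Cxcr4, which moved the other way. Among the receptor genes chosen, Cxcr4 had the highest mean normalized count per kb of transcript in both groups. Sequences are from RefSeq on GRCm38.p6 and read 5′ to 3′ on the strand of the gene, and the capitals mark the 6 letters AGATAA that GATA factors are known to bind.
Ccr3, chr9:124021721-124021970, plus strand: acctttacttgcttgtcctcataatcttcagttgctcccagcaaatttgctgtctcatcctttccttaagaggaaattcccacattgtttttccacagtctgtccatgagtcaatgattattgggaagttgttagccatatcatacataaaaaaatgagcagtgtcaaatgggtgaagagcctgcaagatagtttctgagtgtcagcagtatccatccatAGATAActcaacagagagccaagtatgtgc
Ccr1, chr9:123968693-123968942, minus strand: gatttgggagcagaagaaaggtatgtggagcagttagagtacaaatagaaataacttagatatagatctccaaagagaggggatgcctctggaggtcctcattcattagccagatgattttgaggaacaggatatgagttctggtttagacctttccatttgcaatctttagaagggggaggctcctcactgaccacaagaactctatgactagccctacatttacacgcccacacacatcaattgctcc
Cxcr4, chr1:128592300-128592549, minus strand: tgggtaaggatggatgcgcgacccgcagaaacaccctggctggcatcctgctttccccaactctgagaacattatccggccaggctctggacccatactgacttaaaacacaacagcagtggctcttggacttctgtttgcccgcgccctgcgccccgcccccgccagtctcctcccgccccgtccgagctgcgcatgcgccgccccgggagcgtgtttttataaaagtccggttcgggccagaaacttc
Both strands were searched for AGATAA and for TTCNNNGAA, the letters of a STAT factor site. AGATAA stood once before Ccr3, on the strand of the gene and 30 to 25 bases before the start. It was also found, on the opposite strand, before Ccr2 (97 to 92 bases from the start) and before 2 of the 3 listed starts of Ccrl2. It was not among these letters before Ccr1, Cxcr2, Cxcr4 or Cx3cr1, and TTCNNNGAA was in none of the windows searched for the receptor genes. No window was searched for Ccr7. Of 32851 mouse promoter windows of the same length, 9.99% held AGATAA and 7.02% held TTCNNNGAA, so these matches are a description of the sequences only.

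Ccr3 transcripts were more abundant in every EV-treated library. The sham-treated libraries had 9349, 8469 and 9283 normalized counts of Ccr3, and the EV-treated libraries had 18655, 20208 and 20317. The groups did not overlap, and the spread within each was small beside the gap between them. Means were 9034 ± 490.4 (SD, n = 3) and 19727 ± 929.8 (SD, n = 3). The log2 fold change was 1.13 with a standard error of 0.062 and a 95% interval from 0.99 to 1.27 (adjusted p = 7.64e-07). Ccr3 (ENSMUSG00000035448.9) spans chr9:124021972-124031689 on the plus strand of GRCm38 (GENCODE vM21), and 0.524% of the 31-base words of its transcript occur in another gene, mostly Ccr1.

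Ccr1, which binds several inflammatory CC chemokines and is carried by many myeloid cells, moved like Ccr3. Its normalized counts were 7132, 6745 and 7922 in the sham-treated libraries and 15127, 14694 and 15229 in the EV-treated libraries. The groups lay apart, and the EV-treated libraries were within a narrow band. The log2 fold change was 1.05 with a standard error of 0.067 and a 95% interval from 0.90 to 1.20 (adjusted p = 1.87e-06). Ccr1 spans chr9:123962124-123968692 on the minus strand. The ratio of Ccr3 to Ccr1 counts within each library, which needs no scaling between libraries, was 1.25 ± 0.07 (SD, n = 3) with sham and 1.31 ± 0.0731 (SD, n = 3) with EVs. These ranges overlapped (exact two-sided permutation test, p = 0.4), so no change in the balance of the pair was detected with 3 libraries a group.

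Cxcr2, the receptor for the neutrophil-attracting CXC chemokines and a gene usually linked to neutrophils, had the largest rise among the receptor genes chosen. The sham-treated libraries had 1034, 777 and 1010 normalized counts and the EV-treated libraries 3417, 3465 and 3452. All EV-treated libraries were more than 3 times as high as any sham-treated library, and they differed little among themselves. Means were 940.4 ± 142 (SD, n = 3) and 3444 ± 24.8 (SD, n = 3), the log2 fold change was 1.87 with a standard error of 0.10 and the 95% interval ran from 1.64 to 2.10 (adjusted p = 7.63e-07). Cxcr2 rose relative to Ccr3 as well: its counts were 0.104 of those of Ccr3 with sham and 0.175 with EVs (exact two-sided permutation test, p = 0.1, the smallest that 3 against 3 libraries allow, and 0.12 adjusted over 6 ratios). Cxcr2 spans chr1:74153989-74161246 on the plus strand, and 7.70% of its 31-base words also occur in other genes. Neutrophil markers moved both ways. Of 8 with counts, 5 were lower (Mmp8, S100a8, S100a9, Ltf and Camp), against 11.6% of all genes tested. Ly6g was the 1 called higher, against 12.1%. It went from 559 to 3516 normalized counts (log2 fold change 2.65, adjusted p = 4.16e-08). The summed normalized counts of the list were 19368 to 23036 with sham and 15429 to 19141 with EVs. The part of neutrophils in the rise of Cxcr2 was not tested.

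Cxcr4, the receptor for Cxcl12, fell while keeping the highest mean per kb of transcript among the receptor genes chosen. Without division by length, the mean of Cxcr4 with EVs was below those of Ccr3 and Ccr1. Normalized counts of Cxcr4 were 22825, 21191 and 22825 in the sham-treated libraries and 11557, 11697 and 10928 in the EV-treated libraries. Every EV-treated library was far below every sham-treated library. Means were 22280 ± 943.4 (SD, n = 3) and 11394 ± 409.9 (SD, n = 3), and the log2 fold change was -0.97 with a standard error of 0.056 and a 95% interval from -1.09 to -0.84 (adjusted p = 1.06e-06). Cxcr4 spans chr1:128588199-128592293 on the minus strand, and none of its 31-base words occurred in another gene.

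Cx3cr1, the fractalkine receptor and a gene typical of monocytes, macrophages and microglia, was detected in the sham-treated libraries only. It had 112, 148 and 182 counts there, or 100.9, 181 and 221 normalized counts, and 0 counts in each of the 3 EV-treated libraries. Set against a floor of 3 counts per library, it was at least 61.5-fold lower with EVs (adjusted p = 3.12e-05). A count of 0 allows up to 2.73 normalized counts on average in these libraries, so the gene was below detection there rather than shown to be absent. The monocyte and macrophage markers moved in part with it: 6 of 10 were lower, among them Csf1r (log2 fold change -1.31) and C1qa (-2.58), whereas Adgre1 and Ly6c2 were higher. Over all genes tested, 11.6% were lower and 12.1% higher. The median log2 fold change of these markers was -1.89. Their summed normalized counts were 51519 to 63827 with sham and 67047 to 72945 with EVs. With EVs most of that sum was Adgre1 (mean 21326 with sham, 32764 with EVs) and Ly6c2 (10910 and 27641). None of the 10 was at 0 in all libraries. Among the sham-treated libraries, sham replicate 1 was lowest for Cx3cr1, Csf1r and C1qa, but not for Adgre1 or Ly6c2. Fewer cells of a type and less RNA per cell cannot be told apart in such cultures, and the part of other cells in the fall of Cx3cr1 was not tested. The gene spans chr9:119901616-120069879 on the minus strand, and its exons overlap those of Gm33858 on the opposite strand, from which its reads cannot be told apart where the library's strand is not given.

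**Figure D1:**
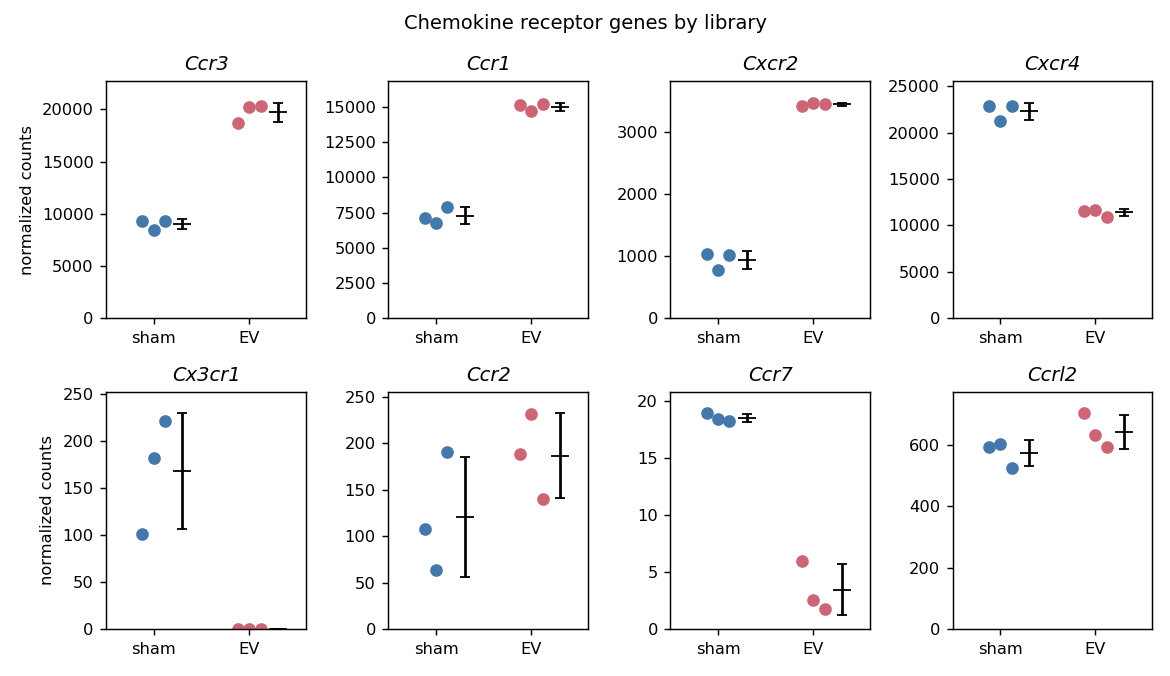
Normalized counts (linear axes from 0, a scale of its own for each gene) of the 8 chemokine receptor genes in the 3 sham-treated (blue) and 3 EV-treated (red) libraries, with the mean and SD in black beside them. Ccr3, Ccr1 and Cxcr2 are higher and Cxcr4 and Cx3cr1 lower in every EV-treated library, while the groups overlap for Ccr2 and Ccrl2.

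The receptors that missed the threshold were all at low or middling levels. Ccr7, which guides dendritic cells and T cells to lymph nodes through Ccl19 and Ccl21, had 21, 15 and 15 counts in the sham-treated libraries and 6, 3 and 2 in the EV-treated libraries. The groups did not overlap, as was the case for 49.6% of all genes tested. Its log2 fold change was -2.41 with a 95% interval from -4.16 to -0.66 (adjusted p = 0.0366), so at this depth the direction had an interval clear of 0 but the gene was not called. Of the 5 dendritic cell markers tested, 0 were called higher and 0 lower by edgeR at the adjusted threshold (1 and 1 at an unadjusted p under 0.05, and 0 and 0 by DESeq2), and their summed normalized counts were 123 to 275 with sham and 151 to 256 with EVs.

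Ccr2, the monocyte receptor for Ccl2 and Ccl7, was scattered in both groups. The sham-treated libraries had 107, 63.7 and 191 normalized counts and the EV-treated libraries 189, 231 and 140. The groups overlapped, and the log2 fold change of 0.63 had a 95% interval from -0.18 to 1.44 (adjusted p = 0.211), which leaves room for a doubling or for no change. Ccr2 lies at chr9:124101950-124113557 and has 3.41% of its 31-base words in common with other genes.

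Ccrl2, a receptor-like protein that binds chemerin and does not signal through G proteins, changed little if at all. Its normalized counts were 592, 604 and 526 with sham and 703, 633 and 594 with EVs. The lowest EV-treated library was within the sham-treated range. The log2 fold change was 0.16, and its 95% interval from -0.09 to 0.42 did not reach the size of the changes in Ccr3, Ccr1 or Cxcr2 (adjusted p = 0.307).

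Levels were compared between receptor genes only after dividing by the gene's mean transcript length. Per kb, sham-treated cells carried 16461 normalized counts of Cxcr4, 2761 of Ccr3 and 2565 of Ccr1, and the ranges of Ccr3 and Ccr1 overlapped. Cxcr2 (357 per kb) and Ccrl2 (352 per kb) also overlapped, as did Cx3cr1 (44.2 per kb) and Ccr2 (33.2 per kb), and Ccr7 was lowest at 9.36 per kb. In EV-treated cells the order was Cxcr4 (8418 per kb), Ccr3 (6029), Ccr1 (5301), Cxcr2 (1308), Ccrl2 (394), Ccr2 (51.5), Ccr7 (1.74) and Cx3cr1 (0), and no neighbours in this order overlapped. The gap between Cxcr4 and Ccr3 thus narrowed while the order of the means at the top stayed the same. With the longest transcript in place of the mean length, the EV means of Cxcr4 and Ccr3 were 6312 and 6029 per kb, and their libraries overlapped.

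The summed level of the 8 receptor transcripts per kb of mean transcript length overlapped between the groups, whereas its make-up differed. The sum per kb was 23060, 21366 and 23323 normalized counts in the sham-treated libraries and 21364, 21774 and 21373 in the EV-treated libraries. Without division by length the groups did not overlap, with summed normalized counts of 38049 to 41996 with sham and 49654 to 50930 with EVs. Cxcr4 made up 72.9% ± 0.525 (SD, n = 3) of that sum with sham and 39.1% ± 1.19 (SD, n = 3) with EVs. Ccr3 went from 12.2% ± 0.148 to 28.0% ± 1.22 (SD, n = 3 each) and Ccr1 from 11.4% ± 0.565 to 24.7% ± 0.727 (SD, n = 3 each). Ccr3 and Ccr1 together therefore outweighed Cxcr4 in each EV-treated library and in no sham-treated library. For each of these 3 shares the libraries did not overlap, with p = 0.1 in an exact two-sided permutation test, the smallest that 3 against 3 libraries allow (0.133 adjusted over 8 shares). With the longest transcript in place of the mean length, Cxcr4 made up 67.5% and 33.1%, Ccr3 15.1% and 31.6%, and Ccr1 14.0% and 27.8%.

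**Figure D2:**
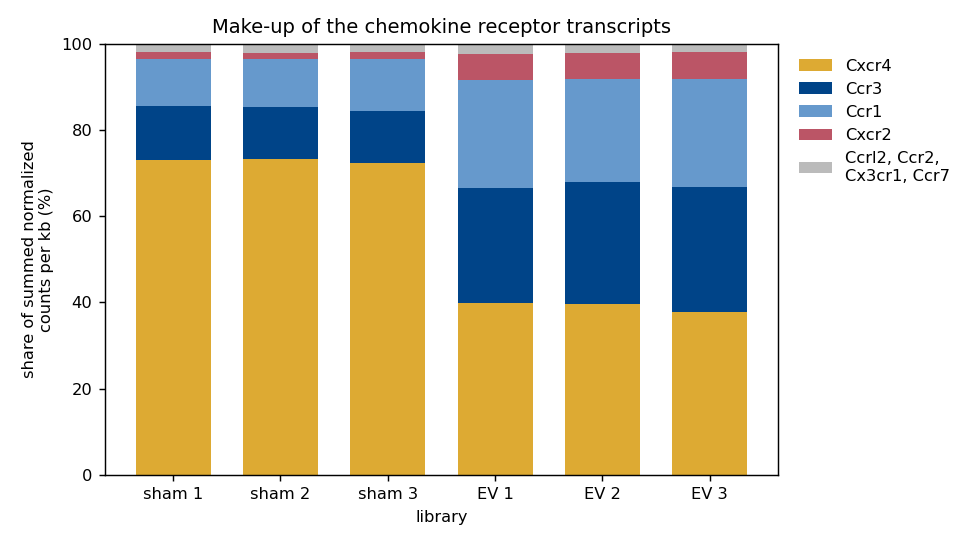
Share of each receptor gene (%, stacked bars from 0 to 100) in the summed normalized counts per kb of the 8 chemokine receptor genes, 1 bar per library. Cxcr4 takes 72.9% on average in the sham-treated libraries and 39.1% in the EV-treated libraries, and the shares of Ccr3, Ccr1 and Cxcr2 are larger in each EV-treated library.

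The balance of Cxcr4 and Ccr3 was also read within libraries, where no scaling enters. There were 2.44, 2.50 and 2.46 counts of Cxcr4 for each count of Ccr3 in the sham-treated libraries and 0.620, 0.579 and 0.538 in the EV-treated libraries. The ratio was above 1 in all sham-treated and below 1 in all EV-treated libraries, a difference of -2.09 on the log2 scale (exact two-sided permutation test, p = 0.1, the smallest possible here, and 0.12 adjusted over 6 ratios). Eosinophil markers rose too: 7 of 11 were called higher and 0 lower by edgeR (0 lower at an unadjusted p under 0.05 and 0 lower by DESeq2), with a median log2 fold change of 0.64, and their summed normalized counts were 933738 to 1177501 with sham and 1323892 to 1482930 with EVs. Over all genes tested, edgeR called 12.1% higher and 11.6% lower. Per count of the eosinophil surface lectin Siglecf in the same library, there were 1.43 ± 0.0621 counts of Ccr3 with EVs and 1.19 ± 0.028 with sham (SD, n = 3 each, exact two-sided permutation test, p = 0.1, and 0.12 adjusted over 6 ratios). Per count of the granule protein gene Prg2, there were 0.0266 ± 0.00231 counts of Ccr3 with EVs and 0.0143 ± 0.00114 with sham (SD, n = 3 each, exact two-sided permutation test, p = 0.1, and 0.12 adjusted over 6 ratios). No other eosinophil marker was used in this way, and the part of eosinophil numbers in the rise of Ccr3 was not tested. Basophils carry Ccr3 as well. Of the mast cell and basophil markers, 3 of 5 tested were higher (Mcpt8, Prss34 and Cpa3), against 12.1% of all genes tested. The summed normalized counts of that list were 2184 to 3140 with sham and 5863 to 7296 with EVs. The part of these cells in the rise of Ccr3 was not tested.

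Genes around Ccr3 were followed across 500000 bases to either side. Of 15 protein-coding genes followed there, 12 were tested. Of these, 3 rose, against 12.1% of all genes tested, and 1 fell, against 11.6%. Ccr3, around which the window was drawn, and Ccr1 were chosen at the outset, so these counts describe the region only. The higher genes, Ccr1, Ccr1l1 and Ccr3, were all chemokine receptors and lay side by side, and Ccr2, on the far side of Ccr3 from Ccr1, was not called. Ccr1l1, a Ccr1-like gene with its start at -43.6 kb from that of Ccr3, went from 43.8 ± 18.5 to 196 ± 30.2 normalized counts (SD, n = 3 each; log2 fold change 2.15, adjusted p = 0.000688). The lower gene, Lztfl1, a regulator of transport into cilia, was named after its values were seen; it fell by 0.88 on the log2 scale (adjusted p = 0.00279). The call for Lztfl1 was lost without EV replicate 2 (log2 fold change -0.82) or EV replicate 3 (-0.88). On the same side of Ccr3 as Lztfl1, Xcr1 (log2 fold change 0.40, adjusted p = 0.448) and Ccr9 (-2.01, adjusted p = 0.0895) were not called.

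**Figure D3:**
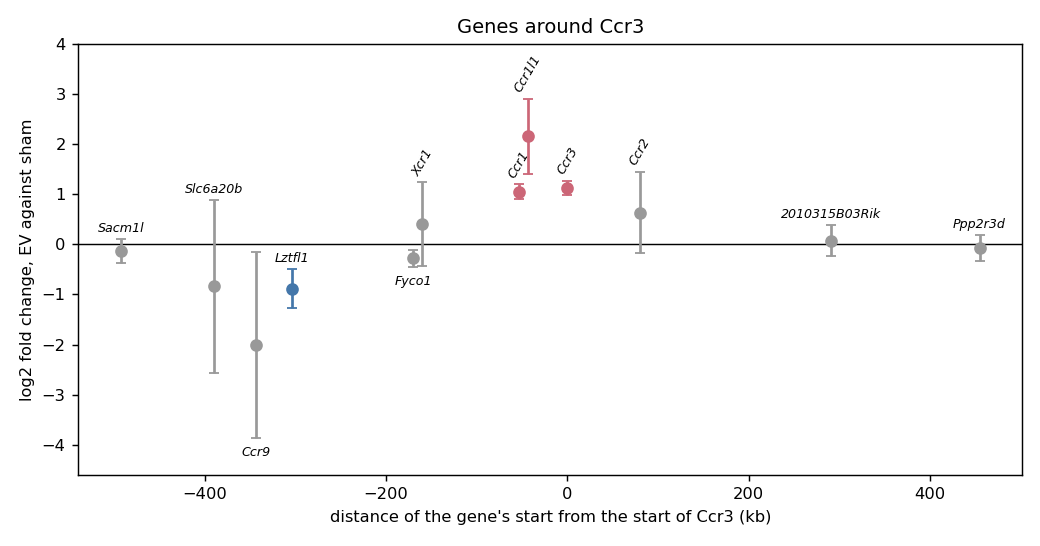
Log2 fold change (EV against sham) with its 95% interval for the 12 tested protein-coding genes followed around Ccr3, placed by the distance in kb of each gene's start from that of Ccr3. Genes called higher (red) are Ccr1, Ccr1l1 and Ccr3, the gene called lower (blue) is Lztfl1, and grey genes did not pass an adjusted p of 0.01.

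The other chemokine receptor genes on the list were mostly not detected well enough to test. Of 14 listed, 9 had counts and 3 (Ccr1l1, Ccr9 and Xcr1) passed the low-count filter. Of these, edgeR and DESeq2 each called 1 higher and 0 lower, edgeR had 1 higher and 1 lower at an unadjusted p under 0.05, and the median log2 fold change was 0.40. Over all genes tested, edgeR called 12.1% higher and 11.6% lower. Cxcr3, Cxcr5, Cxcr6, Ccr4, Ccr6 and Ackr4 averaged under 20 normalized counts in both groups. Of the chemokine receptors described here, those with the most transcript per length were Cxcr4, Ccr3, Ccr1 and, after EV treatment, Cxcr2.

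**Figure D4:**
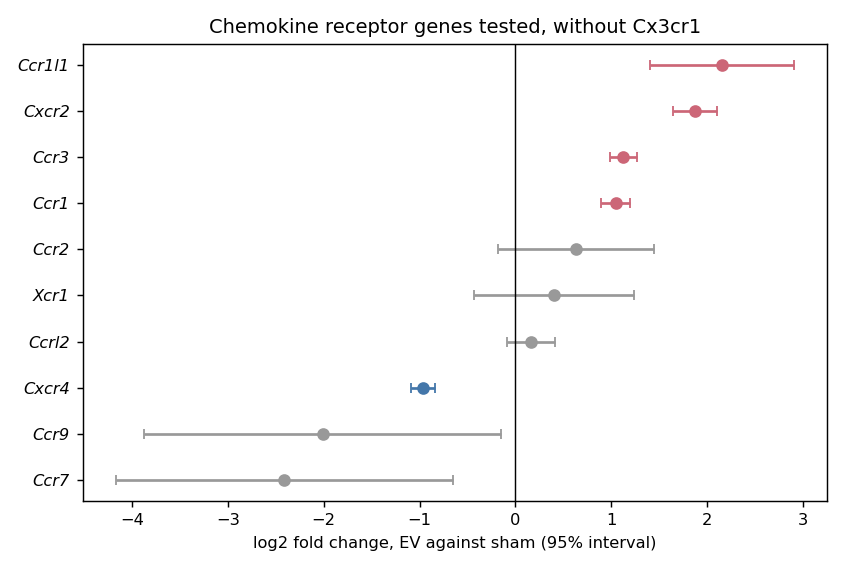
Log2 fold change (EV against sham) with its 95% interval for 10 chemokine receptor genes tested, without Cx3cr1, which had no counts with EVs. Ccr1l1, Cxcr2, Ccr3 and Ccr1 (red) are higher, Cxcr4 (blue) is lower, and the intervals of Ccr7 and Ccr9, the genes with the lowest mean counts here, are the widest.

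Transcripts of the receptors' ligands changed in both directions. Of 22 listed ligand genes, 13 were tested. Of these, 5 were higher, against 12.1% of all genes tested, and 3 lower, against 11.6% (median log2 fold change 0.03). Ccl6, a Ccr1 ligand, was by far the most abundant, with 75473, 65833 and 67362 normalized counts with sham and 248136, 257635 and 247371 with EVs. This is a log2 fold change of 1.85 with a standard error of 0.059 (adjusted p = 2.87e-08), larger than that of its receptor. Ccl24, eotaxin-2 and a ligand of Ccr3, had 0 counts in all sham-treated libraries and 131, 240 and 165 counts in the EV-treated libraries, at least 47.9-fold higher against a floor of 3 counts per library (adjusted p = 1.74e-05). Ccl24 entered the test through its counts in the EV-treated libraries alone, and Ccl7, given below, needed them to enter. The counts of ligands called therefore describe the genes and support no statement on the list. Ccl5, which binds Ccr1, Ccr3 and other receptors, had a log2 fold change of -1.52 and was not called (adjusted p = 0.0406).

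Both Ccr2 ligands tested were higher although Ccr2 itself was not called. Ccl7 had 3, 12 and 14 counts with sham and 154, 321 and 342 with EVs (log2 fold change 4.45, adjusted p = 8.63e-05). Ccl7 passed the low-count filter only through its counts in the EV-treated libraries, so its call is a description. Ccl2 rose by 1.97 on the log2 scale (adjusted p = 0.00726). That call was lost without sham replicate 1 (log2 fold change 1.62), sham replicate 3 (1.77), EV replicate 2 (1.90) or EV replicate 3 (1.82). Scaling by library size alone also lost the call (log2 fold change 1.82). The remaining ligand called higher was Ccl9, another Ccr1 ligand, named after its values were seen (log2 fold change 1.29, adjusted p = 0.000509).

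The ligands called lower all bind Cxcr2, the receptor with the largest rise among those chosen. Cxcl3 fell by 2.07 on the log2 scale, from 2466 ± 391 to 589 ± 89.9 normalized counts (SD, n = 3 each; adjusted p = 2.42e-06). Ppbp, the precursor of a platelet chemokine, fell by 0.97 (adjusted p = 3.33e-05), and Cxcl2 fell by 0.37 (adjusted p = 0.00722). The call for Cxcl2 was lost when any library other than sham replicate 3 was left out, at log2 fold changes between -0.41 and -0.30. Cxcl12 (log2 fold change -1.11, adjusted p = 0.241) and Cx3cl1 (-1.37, adjusted p = 0.0938), the ligands of the receptors that fell, were at low counts and were not called.

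Among genes that carry or end the receptor signal, 34 of 36 listed names had counts, since Adrbk1 and Adrbk2 are older names of Grk2 and Grk3. Of these 34, 10 were higher, against 12.1% of all genes tested, and 2 lower, against 11.6% (median log2 fold change 0.12). The largest rises were in genes that dampen the signal: the receptor kinase Grk5 (444 ± 58 to 1028 ± 23.2 normalized counts, SD, n = 3 each, log2 fold change 1.21, adjusted p = 2.04e-05) and the GTPase-activating proteins Rgs3 (log2 fold change 1.19), Rgs18 (1.13) and Rgs14 (0.95). The list did not move one way within that role. Rgs1, which restrains signaling of Cxcr4 among others, fell by 1.11 on the log2 scale (adjusted p = 2.34e-05), and the G protein subunit gene Gng2 fell by 0.84 (adjusted p = 2.14e-05). The remaining 22 genes, among them Plcb2, Arrb2 and Pik3cg, were not called. The largest change among these 22 was in Rgs16, named after its values were seen (log2 fold change -2.70, adjusted p = 0.0106).

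**Figure D5:**
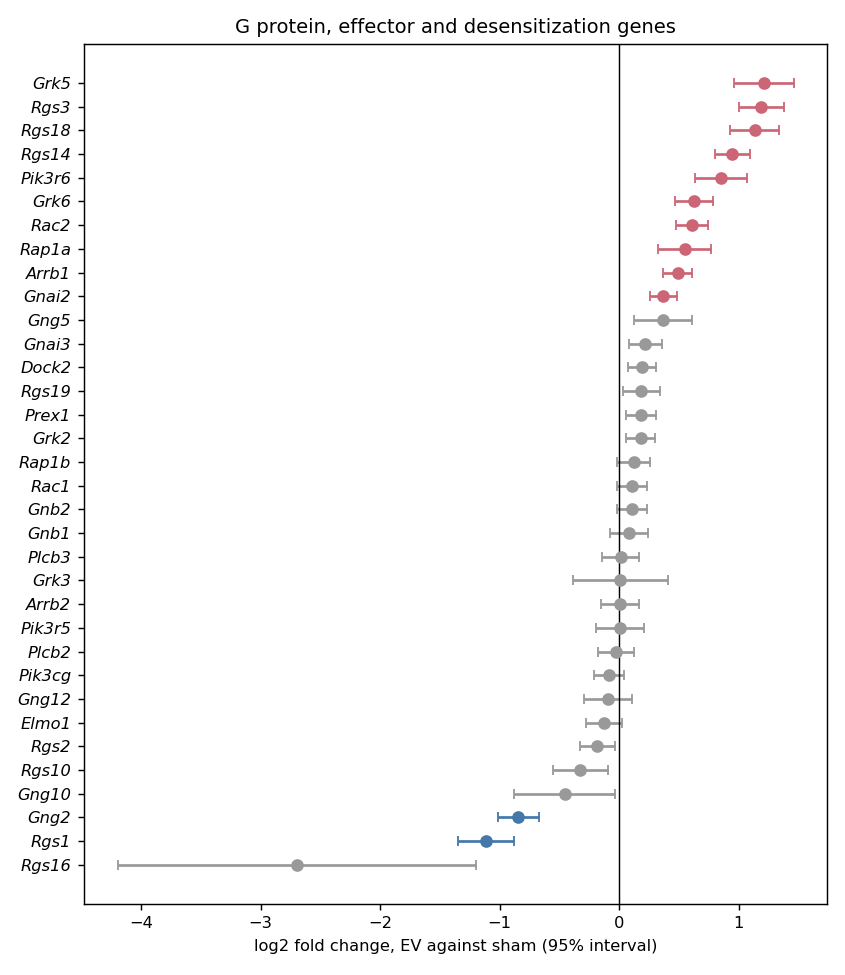
Log2 fold change (EV against sham) with its 95% interval for 34 genes of chemokine receptor signaling, ordered by size. Of these, 10 genes are higher (red, led by Grk5, Rgs3 and Rgs18), 2 are lower (blue, Gng2 and Rgs1) and 22 were not called (grey).

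Genes whose levels ran most like Ccr3 over the 6 libraries were sought among 10455 genes with a mean of at least 100 normalized counts, by the root mean square distance between log2 values centred on each gene's mean. The nearest were Sema7a (distance 0.0308), which encodes a membrane-anchored semaphorin, Napsa (0.047), an aspartic protease, Lpcat3 (0.0479), a lysophospholipid acyltransferase, and Csf2rb2 (0.0526), a receptor chain for IL-3. The level of Csf2rb2 is uncertain, as 30.1% of its 31-base words are found elsewhere, mostly in Csf2rb. Sema7a rose from 4913 to 10694 normalized counts, a log2 fold change of 1.12 beside 1.13 for Ccr3. The 5 genes nearest to Cx3cr1, the receptor gene that fell most, were Gm10052 (distance 0.695), Nptx1 (0.871), Ctla2b (0.981), Mamdc2 (1.05) and Cav1 (1.21). With 0 counts of Cx3cr1 in the EV-treated libraries, these distances depend on the 1 added to each value before the log2 and are not comparable with those of Ccr3. Both Gm10052, with all of its 31-base words found elsewhere, and Ctla2b, with 76.1%, are uncertain for that reason. Likeness over 6 libraries is mostly the difference between 2 groups and says nothing of shared function.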

How the data were processed

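Poly(A) RNA of 6 eosinophil cultures was sequenced. Per the labels and the study's methods, the authors checked reads with FastQC, trimmed them with Cutadapt and quantified transcripts with Salmon against mm10, and they deposited estimated counts per gene. They also deposited normalized counts (a signal scaled by DESeq2 size factors), used only as an alternative. Versions, annotation and strand setting are not given in the sources used here. A table of the authors' own comparison was not used.

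Here, estimated counts were rounded and tested with edgeR 4.0.16 in R 4.3.3: TMM scaling, filterByExpr, a quasi-likelihood fit without a block over all genes that passed, and Benjamini-Hochberg adjustment over those genes, with calls at an adjusted p under 0.01. Scripts were tested on simulated counts. DESeq2 1.42.0 and limma 3.58.1 (log2 of normalized counts plus 1) served as alternatives, beside other scalings, filters, thresholds, a thinned depth, the replicate block and leaving out each library. The replicate numbers were not taken to pair the cultures. The receptor genes and all lists were chosen with earlier results of these data known. Named genes were every receptor gene chosen, up to 4 called genes per direction and list by fold change, every other chemokine receptor that passed the filter, and up to 5 nearest patterns to Ccr3 and to the receptor that fell most. A few genes of the lists are not reported here and were left out of the lists' counts. Gene positions, lengths and shared 31-base words came from GENCODE vM21. Estimated counts carry Salmon's split of reads between similar transcripts, and floors and intervals of counts cover counting error only.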

Additional observations from a re-analysis of the deposited data

How the results depend on the processing

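All 8 receptor genes kept their direction and their side of the threshold under each of 15 alternative fits with calls at an adjusted p under 0.01, with log2 fold changes of 0.98 to 1.17 for Ccr3, 0.90 to 1.12 for Ccr1, 1.72 to 1.95 for Cxcr2 and -1.12 to -0.93 for Cxcr4. Uncalled genes ranged more widely, Ccr2 from 0.34 to 1.12 and Ccr7 from -3.02 to -2.04. Scaling by library size alone shifted the median of all genes by -0.149 and turned 1632 higher and 1572 lower genes into 1036 and 2342; it left 7 signaling genes lower. Requiring a log2 fold change of at least 1 left 1 receptor gene lower (Cxcr4 was lost), 1 ligand lower, 3 signaling genes higher and 1 signaling gene lower. With the limit on the adjusted p set to 0.05, 3 receptor genes (Ccr7 was added) and 4 signaling genes fell. Leaving out 1 library at a time gave 2089 to 3531 calls over all genes against 3204. Same-numbered libraries deviated from their group means with correlations of 0.117, 0.0846 and 0.0371, and EV replicate 3 was nearest to sham replicate 2 (0.0487). No level was set for calling libraries paired, so these values do not decide whether the numbers pair the cultures. With the replicate number as a block, 3 receptor genes were higher and 2 lower, as without it, and 3575 genes were called. Ccr7, with 2 to 21 counts per library, was measured at low depth. The order of the receptor genes by mean level per length had 0 changes with the longest transcript, although the EV-treated libraries of Cxcr4 and Ccr3 then overlapped.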
